A study of Hordeum vulgare with 12 samples.

Results

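VRS5 peaks near long non-coding RNA (lncRNA) genes were taken as the DAP-seq peaks of chromosomes 1H to 7H with at least 1 base within 15 kb of a lncRNA gene and no base within 15 kb of a protein-coding gene, both from the RefSeq annotation of the barley MorexV3 genome. This rule used position only and no measured value, and it selected 1057 of the 99518 peaks on these chromosomes, or 1.06% (95% Wilson interval 1.0003 to 1.13%). Of the other peaks, 86593 were near neither kind of gene, 11235 were near protein-coding genes only and 633 were near both, and 49 further peaks lay on sequence outside the 7 chromosomes.

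VRS5 is the barley ortholog of maize TEOSINTE BRANCHED 1, a TCP transcription factor that restrains the outgrowth of tillers and of lateral spikelets. DAP-seq reads where such a protein, translated outside the cell and tagged, binds fragments of purified genomic DNA free of chromatin. LncRNA genes are transcribed but hold no long open reading frame, and in plants some of their transcripts are known to act on flowering genes or as decoys for small RNAs, while for most no function is known. All 3443 lncRNA genes on 1H to 7H are named in the annotation by LOC and a number, so that no role can be given here for any single gene named.

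The 12 libraries comprised 6 with VRS5-FLAG, translated in wheat germ extract from the coding sequence of cv. Bowman, and 6 with the control protein GFP-FLAG. Both baits were offered genomic DNA of cv. Morex, from 100 mg of developing inflorescence per replicate, collected 4 weeks after sowing at about Waddington stage 4. The libraries of each bait were pooled before peaks were defined, so each peak has 1 value over all 6 VRS5-FLAG libraries, no value has a replicate error and no difference could be tested between libraries. The intervals below reflect counting error alone, with every peak taken as an independent event, and the depth per library was not analysed here.

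VRS5 peaks were sparser around lncRNA genes than in the remaining sequence far from coding genes. Within 15 kb of lncRNA genes, 1047 summits in 55.7 Mb gave 18.8 summits per Mb (95% exact Poisson interval 17.7 to 19.97). In the sequence near neither kind of gene, 86705 summits in 3371 Mb gave 25.7 per Mb (25.6 to 25.9). The ratio of the densities was 0.731 (95% exact interval 0.687 to 0.777). These counts place a peak by its summit, the base of highest read pileup, and so differ slightly from the counts by any base above.

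The density was lower the closer the sequence lay to the gene. Beyond 100 kb from any lncRNA gene it was 25.8 summits per Mb (25.6 to 26.0), and at 15 to 30 kb it was 23.0 (21.8 to 24.3). At 10 to 15 kb it was 21.6 (19.5 to 23.9), a range that overlaps the 21.3 (19.2 to 23.7) found at 5 to 10 kb and the 20.04 (17.3 to 23.0) at 2 to 5 kb. Closer in, the density fell further, although the intervals of adjoining classes overlap. There were 16.7 summits per Mb at 1 to 2 kb (12.6 to 21.7) and 9.60 within 1 kb of the gene ends (6.61 to 13.5). Inside lncRNA genes, 26 summits in 4.83 Mb gave 5.38 per Mb (3.51 to 7.88), an interval that includes the 5.75 per Mb (5.35 to 6.17) of protein-coding gene bodies. The density in gene bodies is given by gene length below. The intervals of gene bodies and of the first 1 kb overlap, whereas each lies wholly below those of all classes beyond 2 kb.

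**Figure D1:**
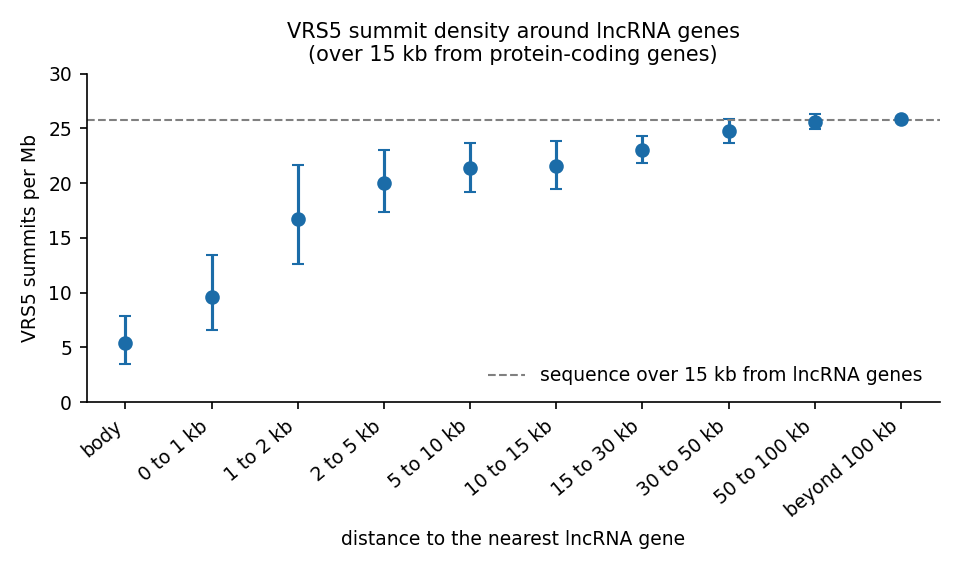
VRS5 summits per Mb (y axis) by distance to the nearest lncRNA gene (x axis, classes from the gene body outward), over sequence more than 15 kb from protein-coding genes; points are densities, bars 95% exact Poisson intervals, and the dashed line is the density over 15 kb from lncRNA genes. Density was lowest in gene bodies at 5.38 per Mb and highest beyond 100 kb at 25.8 per Mb.

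The deficit was found at every distance from coding genes that was examined. Where the nearest protein-coding gene was 15 to 20 kb away, the density near lncRNA genes over that of the rest was 0.768 (0.616 to 0.945), and where it was more than 100 kb away the ratio was 0.747 (0.681 to 0.817). The 3 classes in between gave 0.710 to 0.747. On the 7 chromosomes the ratio ranged from 0.677 on 6H (0.566 to 0.802) to 0.773 on 3H (0.659 to 0.901), and the upper bound was below 1 on all 7. With each chromosome cut into 5 equal parts, the ratio was 0.670 to 0.773. When sequence was matched on chromosome, part and distance to coding genes together, in 175 classes, 1047 summits were found against 1399 from the density of the rest, a ratio of 0.749 (0.704 to 0.795).

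**Figure D2:**
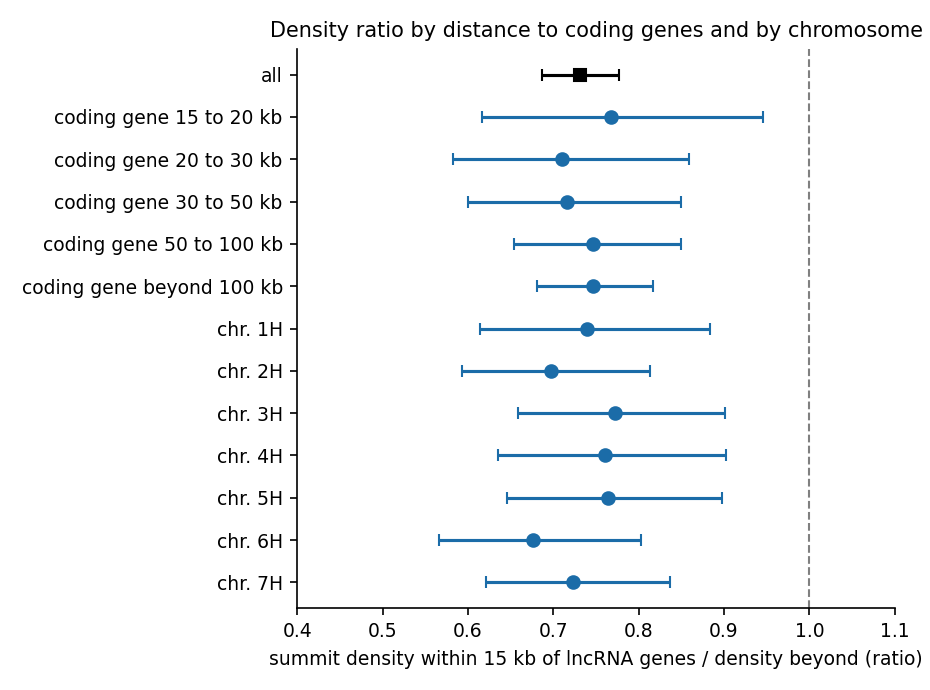
Summit density within 15 kb of lncRNA genes divided by the density beyond (x axis, ratio), for classes of distance to the nearest protein-coding gene and for each chromosome (y axis); points are ratios and bars 95% exact intervals. Every ratio lies below 1, from 0.677 on 6H to 0.773 on 3H among the chromosomes.

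Greenscreen regions, which had high read numbers with GFP-FLAG, were removed from the peak list by the authors and took up 7.29% of the sequence near lncRNA genes and 6.11% of the rest. With these regions left out of the length, the ratio was 0.740 (0.696 to 0.787). They touched 277 lncRNA genes, or 8.05% (7.18 to 9.001%), and 11.0% of protein-coding genes. A lower density was also found around other annotated features far from coding genes and lncRNA genes. The ratio was 0.725 (0.692 to 0.758) around pseudogenes, which overlaps the 0.748 (0.701 to 0.797) of lncRNA genes without another annotated gene nearby. It was 0.650 (0.535 to 0.783) around small nucleolar RNA genes and 0.443 (0.339 to 0.569) around transfer RNA genes. Around ribosomal and small nuclear RNA genes it was 0.374 (0.292 to 0.471), where greenscreen regions took up 13.0% of the sequence. The intervals of transfer RNA genes and of this last class lie wholly below that of lncRNA genes. The deficit is therefore not particular to lncRNA genes.

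Of the 3443 lncRNA genes, 830 had at least 1 of the 1057 peaks within 15 kb, or 24.1% (22.7 to 25.6%). The rule itself limits this share, because a lncRNA gene beside a coding gene has little sequence left in which a peak could qualify. The median lncRNA gene lay 15.9 kb from the nearest protein-coding gene. Among genes sharing a base with a coding gene, 6 of 333 had such a peak, and among the others within 15 kb of one, 101 of 1363 did. Of the 1447 lncRNA genes more than 30 kb from a coding gene, where the rule takes away no flanking sequence, 618 had a peak, or 42.7% (40.2 to 45.3%). Pseudogenes at the same distance had a VRS5 peak in 1000 of 2454 cases, or 40.7% (38.8 to 42.7%), and the intervals overlap.

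Most lncRNA genes with a peak had a single one. There were 599 genes with 1 peak, 174 with 2, 44 with 3, 12 with 4 and 1 with 5. Of the peaks, 988 lay near 1 lncRNA gene, 63 near 2 and 6 near 3, so peaks and genes do not pair one to one. By chromosome the number of peaks ran from 123 on 1H to 186 on 7H, and they made up from 0.893% of the peaks on 4H to 1.27% of those on 7H. Chromosome 4H also had the fewest lncRNA genes, 374, against 573 on 7H. The summit density near lncRNA genes was 19.9 per Mb on 4H and 18.2 per Mb on 7H. The nearest lncRNA gene lay at higher coordinates for 521 peaks and at lower coordinates for 510, while 26 summits were inside a gene. Gene strand was not used here, so upstream and downstream sides were not told apart.

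The gene with the most peaks was LOC123412693, a gene of 1420 bp on 7H from 102869796 to 102871215, 51.0 kb from the nearest coding gene. Its 5 peaks had fold enrichments over the local GFP-FLAG background of 3.12, 4.90 and 3.51 on the lower side and 6.71 and 4.91 on the higher side. The strongest was also the nearest, with its summit 1.42 kb from the gene and a pileup of 79 reads. Of the 13 genes with 4 or more peaks, the 10 taken by number of peaks and then by strongest peak carried 41 peaks in all, with fold enrichments from 3.12 to 8.06. They lay on 1H, 2H, 3H, 4H, 5H and 7H, were 235 to 11437 bp long and lay 41.2 to 505 kb from a coding gene.

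The sides differed among these genes. LOC123446227, LOC123395819 and LOC123433563 had 2 peaks on each side, and LOC123429855 and LOC123440194 had all 4 on a single side. LOC123410548 on 1H, the shortest at 235 bp, had its strongest peak, of 8.06-fold and a pileup of 94, at 8.78 kb, with a second summit of 4.13-fold at 8.19 kb on the same side. At LOC123446227 on 4H a peak of 7.90-fold lay 2.96 kb from the gene, and the other 3 had 3.31-fold to 5.31-fold. All 4 peaks of LOC123429855 on 2H lay on its higher side at 7.51 to 13.5 kb, with 3.64-fold to 5.91-fold. LOC123440194 on 3H also had all 4 on its higher side, at 6.47 to 13.3 kb, with 3.78-fold to 5.67-fold. At both genes, no peak lay inside the gene or on its lower side. At LOC123448415 on 4H, 3 weak peaks of 3.48-fold, 3.93-fold and 3.69-fold lay 7.11 to 8.38 kb outside the gene, and the strongest, of 7.05-fold, lay inside it. In LOC123395819 on 5H, LOC123447998 on 4H, LOC123405000 on 1H and LOC123433563 on 1H, the strongest peaks had 7.28-fold, 6.73-fold, 6.43-fold and 5.27-fold and lay 9.08, 10.02, 8.49 and 8.40 kb from the gene.

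**Figure D3:**
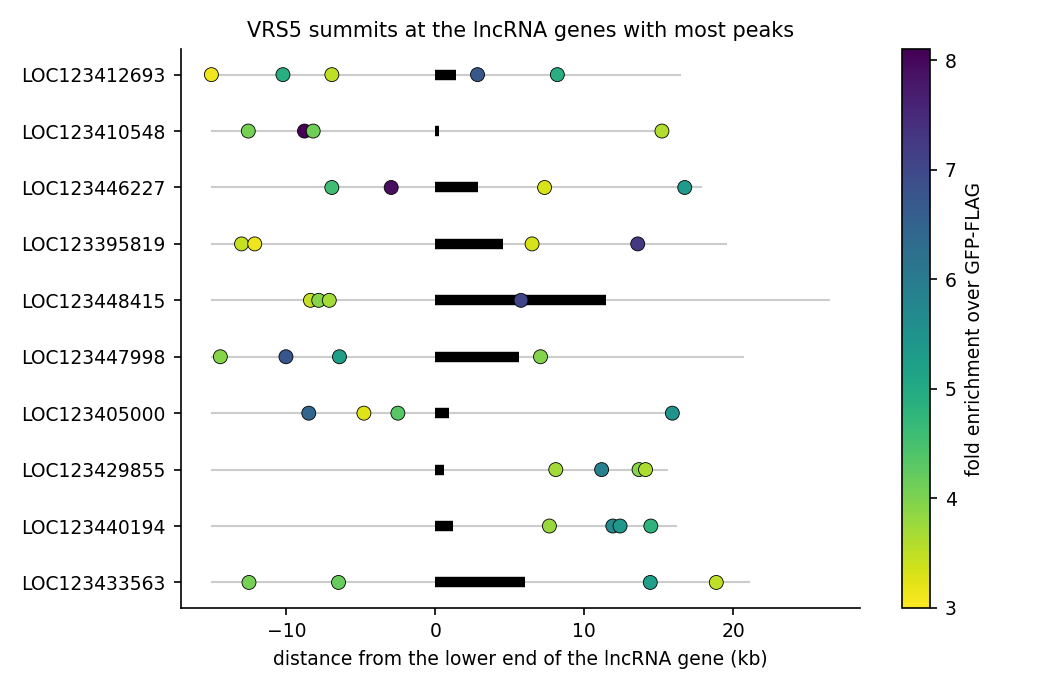
Positions of VRS5 summits (points, coloured by fold enrichment over GFP-FLAG) around the 10 lncRNA genes with most peaks (rows), in kb from the lower end of each gene (x axis); black bars are genes and grey lines the 15 kb on each side. LOC123412693 has 5 summits and the other 9 genes 4 each, and a single summit, at LOC123448415, lies inside a gene.

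LncRNA genes that held a summit were longer than most. The 26 summits lay in 23 genes with a median length of 9104 bp (quartiles 4926 and 14948), against 1548 bp (810.5 and 3225) for all lncRNA genes. Per Mb of gene, density was highest in the longest genes. Among lncRNA genes more than 30 kb from a coding gene, those over 10 kb long held 13 summits at 16.7 per Mb (8.87 to 28.5), and those of 2 to 5 kb held 3 at 1.90 per Mb (0.393 to 5.56). These intervals do not overlap, but the interval of genes over 10 kb overlaps that of each remaining length class. Genes of 5 to 10 kb held 4 summits at 5.95 per Mb (1.62 to 15.2), and those of 1 to 2 kb held 2 at 3.63 per Mb (0.440 to 13.1). In genes of up to 1 kb there were 0 summits in 0.283 Mb, which allows up to 13.0 per Mb. The 15 kb flanks of lncRNA genes, over sequence more than 15 kb from coding genes, had 20.1 summits per Mb (18.9 to 21.3). The interval of genes over 10 kb includes this value, so a lower density in bodies than in flanks is not shown for the longest genes. By depth inside the gene, the density was 4.32 per Mb within 1 kb of a gene end (2.16 to 7.74) and 3.89 at 1 to 2 kb (1.06 to 9.95). It was 10.5 per Mb at 2 to 5 kb (4.51 to 20.6) and 6.05 beyond 5 kb (1.25 to 17.7), and all these intervals overlap. Counts of this size leave the relation with depth unresolved.

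The strongest summit inside a lncRNA gene was in LOC123439867 on 3H, a gene of 41567 bp from 271036690 to 271078256, with 7.72-fold enrichment and a pileup of 95. A second summit in the same gene had 3.61-fold. LOC123443376 on 3H (10937 bp) held one of 7.32-fold, the next strongest, followed by the 7.05-fold summit of LOC123448415. All 3 of these genes are over 10 kb long, as are 11 of the 23 genes in total. Of all 3443 lncRNA genes, 129 are at least 10 kb long, and a longer gene offers more sequence in which a summit can fall. The next were LOC123439663 on 3H with 5.87-fold, LOC123446203 on 4H with 5.12-fold, LOC123402739 on 6H with 4.91-fold and LOC123409885 on 7H with 4.69-fold. LOC123425561 on 2H had 4.68-fold and LOC123412907 on 7H 4.53-fold. LOC123429966 on 2H held 2 summits, of 4.52-fold and 4.18-fold, and LOC123443246 on 3H, named because it was the remaining gene with more than 1, held 2 of 4.21-fold and 3.94-fold. Inside lncRNA genes the whole range was 3.13-fold to 7.72-fold, so that none of the 10 strongest peaks of the set lay in a gene. With 26 of all 1057 summits inside a gene, few or none of any 10 would lie there.

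The peaks near lncRNA genes were about as strong as those elsewhere. Their median fold enrichment was 4.34 (quartiles 3.86 and 5.15, range 2.62 to 13.6), compared with 4.40 (3.86 and 5.24) for peaks near neither kind of gene and 4.27 (3.78 and 5.02) for those near protein-coding genes only. The difference from peaks near neither was -0.06, with a 95% interval from -0.14 to -0.01 for the median of the 1057 peaks, small against the quartiles. Median pileup was 54 in both sets and median width 280 and 272 bp. The local GFP-FLAG background of the peaks, computed back from pileup and fold enrichment, had medians of 11.2 and 10.9. It is the value that fold enrichment divides by, and not a count of reads beneath the peak. Among 5 classes of like background, the median difference in fold was above 0 in 3 and below 0 in 2, from -0.15 to 0.04. Within chromosomes it ran from -0.17 to 0.04 and was below 0 on 5 of 7. Strength changed little with distance to the lncRNA gene, with medians of 4.19 inside genes (n = 26), 4.36 within 2 kb (n = 89), 4.25 at 2 to 5 kb (n = 197), 4.36 at 5 to 10 kb (n = 353) and 4.38 beyond 10 kb (n = 392).

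At the strong end of the distribution, the shares overlapped those of peaks near neither kind of gene. Above 10-fold there were 7 peaks, or 0.662% (0.321 to 1.36%), against 0.485% (0.441 to 0.534%) near neither kind of gene and 0.205% (0.136 to 0.307%) near protein-coding genes only. The interval of the lncRNA set overlaps that of the first and lies just above that of the second. At more than 8-fold the shares were 2.27% (1.53 to 3.36%), 2.56% and 1.62% (1.402 to 1.87%), and here the interval overlaps that of the peaks near protein-coding genes. With a -log10 q above 20, they were 30.9% (28.2 to 33.8%), 32.4% and 28.2%.

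**Figure D4:**
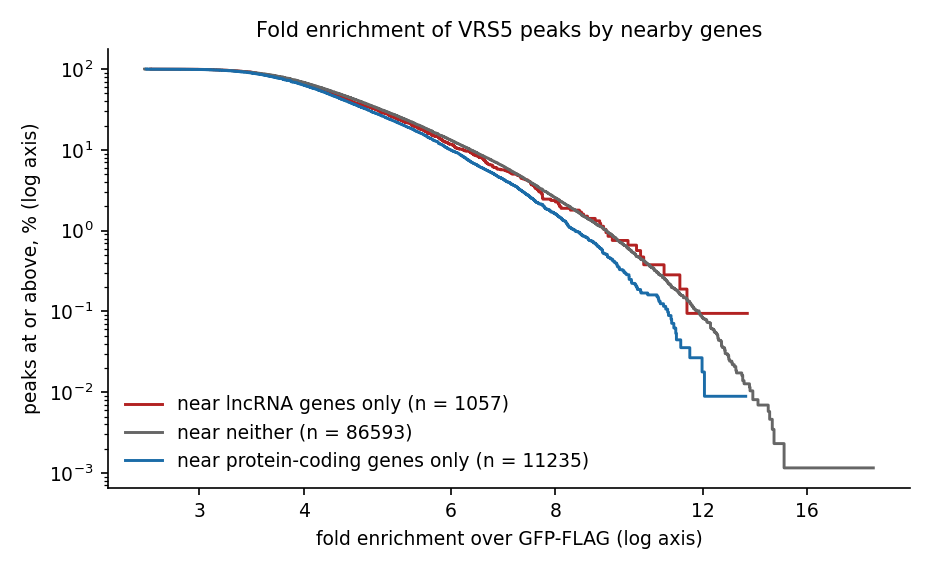
Share of peaks at or above a given fold enrichment over GFP-FLAG (y axis, percent, log axis) against fold enrichment (x axis, log axis), for peaks near lncRNA genes only (n = 1057), near neither kind of gene and near protein-coding genes only. The first 2 curves run close together, with medians of 4.34 and 4.40, and the curve of the lncRNA set ends at 13.6-fold.

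The strongest peak near a lncRNA gene lay on 4H from 451404394 to 451404728, 6.35 kb from LOC123446599 and 68.5 kb from the nearest coding gene. A pileup of 117 reads over a background of 7.69 gave 13.6-fold enrichment and a -log10 q of 88.1, and only 0.0111% of all peaks had a higher fold. Next came a peak of 11.5-fold on 6H (442795853 to 442796760), 13.3 kb from LOC123404588. It was the widest of the top 10, at 908 bp. A pair of regions on 7H followed, with 11.3-fold at 10.7 kb from LOC123409768 (264198345 to 264198931) and 10.8-fold at 11.1 kb from LOC123411260 (364203343 to 364203638). The first of these had the highest pileup of the 10, with 124 reads.

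The other 3 peaks above 10-fold were near LOC123439797 on 3H (10.2-fold), LOC123404322 on 6H (10.1-fold) and LOC123447209 on 1H (10.005-fold). Those near LOC123425879 on 2H, LOC123439573 on 3H and LOC123427981 on 2H had 9.77-fold, 9.36-fold and 9.25-fold. All 10 summits lay outside the gene, as did all but 26 of the 1057. These 10 were 3.84 to 15.1 kb from the lncRNA gene and 23.1 to 406 kb from the nearest coding gene. Their background was low, between 6.91 and 10.2, where the median of the set was 11.2. Fold enrichment divides by this background, so a choice by highest fold itself favours a low one. The value of 6.91 is the lowest in the whole list, and 27 of the 1057 peaks (2.55%) and 2.16% of the peaks near neither kind of gene had a background within 0.01 of it.

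Peaks near lncRNA genes had fewer close neighbours than those near neither kind of gene. Another summit lay within 1 kb of 17 of them, or 1.61% (1.01 to 2.56%), against 3.09% (2.97 to 3.20%) of peaks near neither kind of gene. Within 5 kb the shares were 18.4% (16.1 to 20.8%) and 23.6% (23.3 to 23.9%). No other summit lay within 50 kb of 133 peaks, or 12.6% (10.7 to 14.7%), compared with 7.91% (7.74 to 8.096%) near neither and 14.6% (13.98 to 15.3%) near protein-coding genes only. Peaks near protein-coding genes only had another summit within 1 kb in 2.79% (2.51 to 3.12%) and within 5 kb in 18.6% (17.9 to 19.4%), so that the interval of the lncRNA set overlaps theirs at all 3 distances, within 1 kb only narrowly. The median distance to the nearest other summit was 14.3 kb in the set and 10.5 and 16.99 kb in the other groups. Pseudogenes lay within 15 kb of 7.001% (5.61 to 8.70%) of these peaks, of 2.19% of the peaks near neither and of 7.17% (6.70 to 7.66%) of those near protein-coding genes only. A greenscreen region was that close to 21.7% (19.3 to 24.2%), 16.7% (16.5 to 16.96%) and 19.2% (18.5 to 19.9%) of them.

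An earlier search of the whole peak list for recurrent distances between summits had given 4 distances, and these were counted for the peaks near lncRNA genes. At 9900 to 10249 bp there were 34 other summits, where the classes of equal width on both sides held 12 on average, a ratio of 2.83 (1.63 to 4.99). The same ratio was 2.25 (2.15 to 2.34) for peaks near neither kind of gene and 1.71 (1.44 to 2.01) for those near protein-coding genes only, so that the 3 intervals do not separate the lncRNA set from the others. At 3600 to 3749 bp the order was different. Here 5 summits were found against 8.5 on the sides, a ratio of 0.588 (0.170 to 1.66), while the other groups had 2.82 (2.64 to 3.02) and 2.91 (2.34 to 3.64). The interval of the lncRNA set lies below both. At 5100 to 5349 bp and 6450 to 6649 bp the ratios were 0.846 (0.377 to 1.77) and 1.23 (0.617 to 2.38). Near neither kind of gene they were 1.91 (1.81 to 2.03) and 1.80 (1.69 to 1.91), the first just above the interval of the lncRNA set. Near protein-coding genes only they were 1.75 (1.44 to 2.12) and 1.70 (1.404 to 2.06), both overlapping it. A pair with both summits in the same group was counted from each summit, so all these intervals are too narrow. The small gap at 5100 to 5349 bp is therefore not resolved. All 3 groups were part of the list in which the distances were found. The lncRNA set made up 1.06% of it, but peaks near neither kind of gene were 86593 of its 99518. The ratios of that group were thus high by the choice of distances. A lower ratio in the lncRNA set is a description and not a test.

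**Figure D5:**
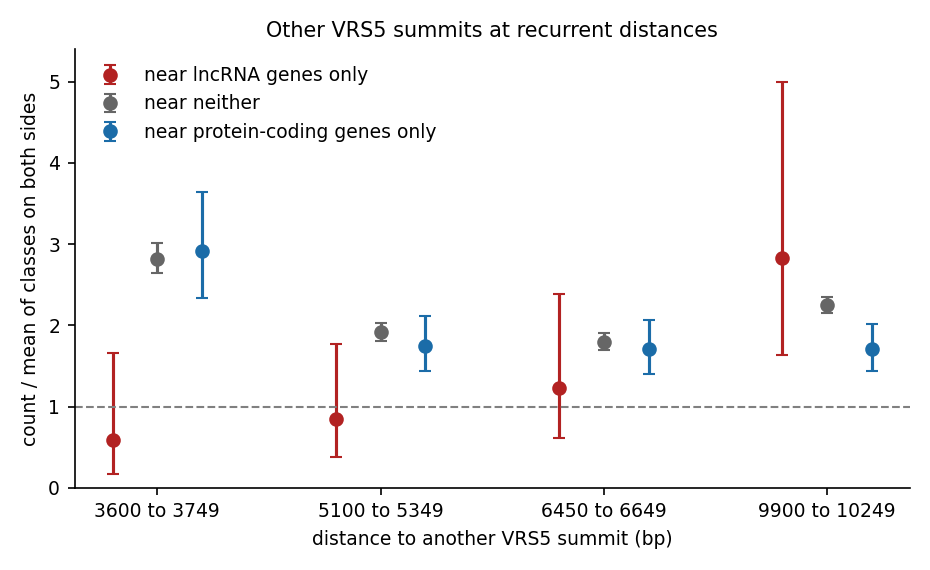
Number of other VRS5 summits at each of 4 recurrent distances divided by the mean of the classes on both sides (y axis, ratio), by distance in bp (x axis), for peaks near lncRNA genes only, near neither kind of gene and near protein-coding genes only; bars are 95% exact intervals. The lncRNA set is at 0.588 for 3600 to 3749 bp, where the other groups are at 2.82 and 2.91. It is at 2.83 for 9900 to 10249 bp. Pairs with both summits in the same group count from each summit, so the bars are too narrow.

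The 34 peaks of the set with another summit at about 10 kb lay in 28 pairs, at most 5 on any chromosome. In 6 pairs both summits belonged to the set. A lncRNA gene lay between the summits in 2 pairs. In 1 of them, on 1H, peaks of 5.69-fold and 4.94-fold stood 10181 bp apart on either side of LOC123412157. In the other, on 4H, peaks of 6.60-fold and 4.93-fold stood 10145 bp apart around LOC123446203, the gene that also held a summit of 5.12-fold. The strong peaks near LOC123439573 (9.36-fold, with a partner of 8.90-fold at 10223 bp) and LOC123411260 (10.8-fold, with one of 3.97-fold at 10092 bp) were in such pairs too. Both genes named as lying between summits were chosen after their values were seen.

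At the limits of the rule, values on either side were as follows. The peak farthest from its lncRNA gene that was still included lay 14982 bp away on 2H (204708397 to 204708806) with 4.51-fold, and the nearest one left out lay 15007 bp away on 7H (88601305 to 88601722) with 5.93-fold. On the side of protein-coding genes, a peak at 15001 bp on 5H (97551657 to 97551965) with 5.39-fold was included, and another at 14972 bp on 5H (554765360 to 554765568) with 4.12-fold was not. The 83 peaks at 14 to 15 kb from a lncRNA gene had a median of 4.27-fold and the 84 at 15 to 16 kb one of 4.41-fold.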

How the data were processed

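VRS5 peaks came from 6 VRS5-FLAG and 6 GFP-FLAG DAP-seq libraries. Per the submitters' processing notes and the methods, reads were trimmed with Trimmomatic 0.39 and mapped to MorexV3 with BWA 0.7.17, peaks were found with MACS2 2.2.7.1, libraries of each bait were pooled, peaks on greenscreen regions were removed with bedtools and those with q below 1e-10 were kept. The pileup signal that the authors deposited is the height of VRS5-FLAG reads at the summit. The deposited fold enrichment is a ratio of pileup to local GFP-FLAG background, with 1 added to both. The authors gave p-values and q-values as -log10 values. For the greenscreen regions, only positions were used, and the ratio deposited with them was not.

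Distances ran from peak or summit to the RefSeq start and end of each gene. Shares have 95% Wilson intervals, densities exact Poisson intervals and ratios exact conditional intervals; the interval of a median comes from order statistics. Densities were computed over each area's length, and tested on simulated peaks with planted densities. Genes named are those nearest to the 10 peaks of highest fold enrichment, the 10 with most peaks and the 10 holding a summit of highest fold, besides exceptions stated in the text. The peaks and lists were chosen with earlier results of these data known. Computation used scipy 1.17.1, pandas 2.3.3 and numpy 2.4.6 under Python 3.11.15, with figures from matplotlib 3.10.9. Among the alternatives were other values of the distances, the q threshold, the position within the peak, other gene types, greenscreen margins and merging. Genome sequence, gene strand, exons and gene expression were not used here, so motifs and sequences of these peaks are not given.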

Additional observations from a re-analysis of the deposited data

How the results depend on the processing

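The number of peaks was set mainly by the distance and the q threshold. It was 321 with lncRNA genes within 5 kb and 676 within 10 kb, and 327 at a -log10 q above 20 and 20 at one above 50. Under the other 6 alternatives it was 721 to 1408. The ratio of density near lncRNA genes to that near neither was 0.566 (0.505 to 0.632) within 5 kb, and 0.691 to 0.749 under the other 6. At a -log10 q above 50 it was 0.739 with an interval of 0.444 to 1.16, which includes 1. The ratio of gene bodies to flanks was 0.268 (0.174 to 0.395), and 0.174 to 0.312 under 4 alternatives. For genes under 10 kb, an alternative chosen after seeing the data, as was the matching by classes, it was 0.174 (0.0926 to 0.2997). The share of lncRNA genes with a peak was 9.44% at a -log10 q above 20, 0.668% at one above 50, 8.63% within 5 kb, and 41.4% when only genes over 15 kb from a coding gene were counted. The fold difference was -0.17 (-0.31 to -0.02) within 5 kb, and -0.10 and -0.07 under the other 2; at a -log10 q above 20 its interval, from -0.18 to 0.09, includes 0. No density ratio or fold difference changed direction under these alternatives, while the number of peaks and the share of genes have no direction to change. Within classes of background and within chromosomes, given above, the fold difference lay above 0 in some. The cause of the changes between settings was not tested, beyond the smaller areas and fewer peaks that each setting leaves by its construction. The planned motif counts were not run, as no genome sequence was used here. No paired analysis was possible because the libraries were pooled before peaks were defined. Peaks close to one another are not independent, so true errors may exceed the counting intervals, and a region without a peak is one without a peak at this q threshold and pooled depth.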
